A study of Anguilla anguilla with 24 samples.

Results

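The group of genes described here is a set of 7 gene labels of fatty acid oxidation, CPT2, acadl, acadm, ehhadh, hadha, hadhb and pparg, whose transcripts were counted by RNA sequencing in the brain and liver of the European eel (Anguilla anguilla). Its members were the contigs, the assembled transcripts to which reads were assigned, whose label equals one of these 7 names in exact letter case once a leading prefix and a trailing copy number are removed. That rule found 8 contigs of the 50640 in the count table, or 7 of 42176 labels, because acadm is split into a copy 1 and a copy 2 and every other label is a single contig. The name of the group fits 6 of the 7 labels, since pparg encodes a receptor and not an enzyme. Regardless of letter case, 6 of the labels equal a symbol in a RefSeq table of eel genes, and hadha does not.

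The eels were sampled in 4 groups of 6 libraries. Gold-fed liver and gold-fed brain came from the same 6 eels, numbered 7 to 12, that ate gold nanoparticles for 21 days (NP1 in the labels), and control liver and control brain came from the 6 eels numbered 1 to 6 kept without them (NP0). The sources used here give no genotype, strain, sex, age or gold dose, and none says whether the eels of a group shared a tank, so p-values measure the spread between eels. The design asks which transcripts respond to gold exposure in each organ.

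Fatty acid oxidation shortens fatty acids by repeated rounds of dehydrogenation, hydration, a second dehydrogenation and thiolytic cleavage, and delivers acetyl-CoA, NADH and FADH2. In mitochondria the long chains enter as carnitine esters and are then handled by enzymes sorted by chain length, whereas peroxisomes hold a separate set of enzymes for very long and branched chains and for dicarboxylic acids. In mammals the liver uses the pathway for energy and to make ketone bodies, and neurons use it little. Receptors of the PPAR family switch on many of its genes in mammals.

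Libraries held 50.3 to 87.6 M (mega) reads in gold-fed liver, 59.4 to 89.8 M in control liver, 79.3 to 116 M in gold-fed brain and 66 to 85.3 M in control brain. The smallest count of any member contig in a library was 164 reads, for ehhadh in a control brain, and all 8 contigs passed the filter on low counts in every comparison. Levels are given as CPM, the reads of a contig per M of library reads, with library sizes scaled by TMM factors, which set the bulk of contigs equal between libraries. These factors were 0.424 to 0.567 in liver and 1.99 to 2.17 in brain, so scaling matters for any difference between the organs. Contig lengths were not used here, and levels are compared between libraries, not between genes. The organs matched their labels: the summed level of 48 hepatocyte marker contigs was 99800 to 142000 CPM in gold-fed liver, 80000 to 145000 CPM in control liver, 77.1 to 149 CPM in gold-fed brain and 73.4 to 468 CPM in control brain, and that of 35 neuron marker contigs was 31.2 to 43.2, 27.5 to 39.5, 2140 to 2330 and 1890 to 2210 CPM in the same 4 groups. Both lists had every contig above 0 in every group. In the edgeR test of liver against brain, 47 hepatocyte contigs were called higher and 1 lower in liver in both sets of eels. All neuron contigs tested were called lower there, 35 in gold-fed and 34 in control eels.

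All 8 member contigs were higher in liver than in brain, in both sets of eels, and with TMM scaling the livers and brains of no member overlapped. Of all contigs tested, 33.3% in gold-fed and 34.9% in control eels passed the edgeR test as higher in liver. No overlap, with liver on top, was met by 24.3% and 25.3%. The difference of the members ran from about 6-fold for hadhb to about 34-fold for ehhadh in control eels. Between gold-fed and control eels no member passed the test in either organ. That test called 0 of 41793 contigs in liver and 1 of 49830 in brain. The values behind these statements follow in the order of the pathway.

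**Figure D1:**
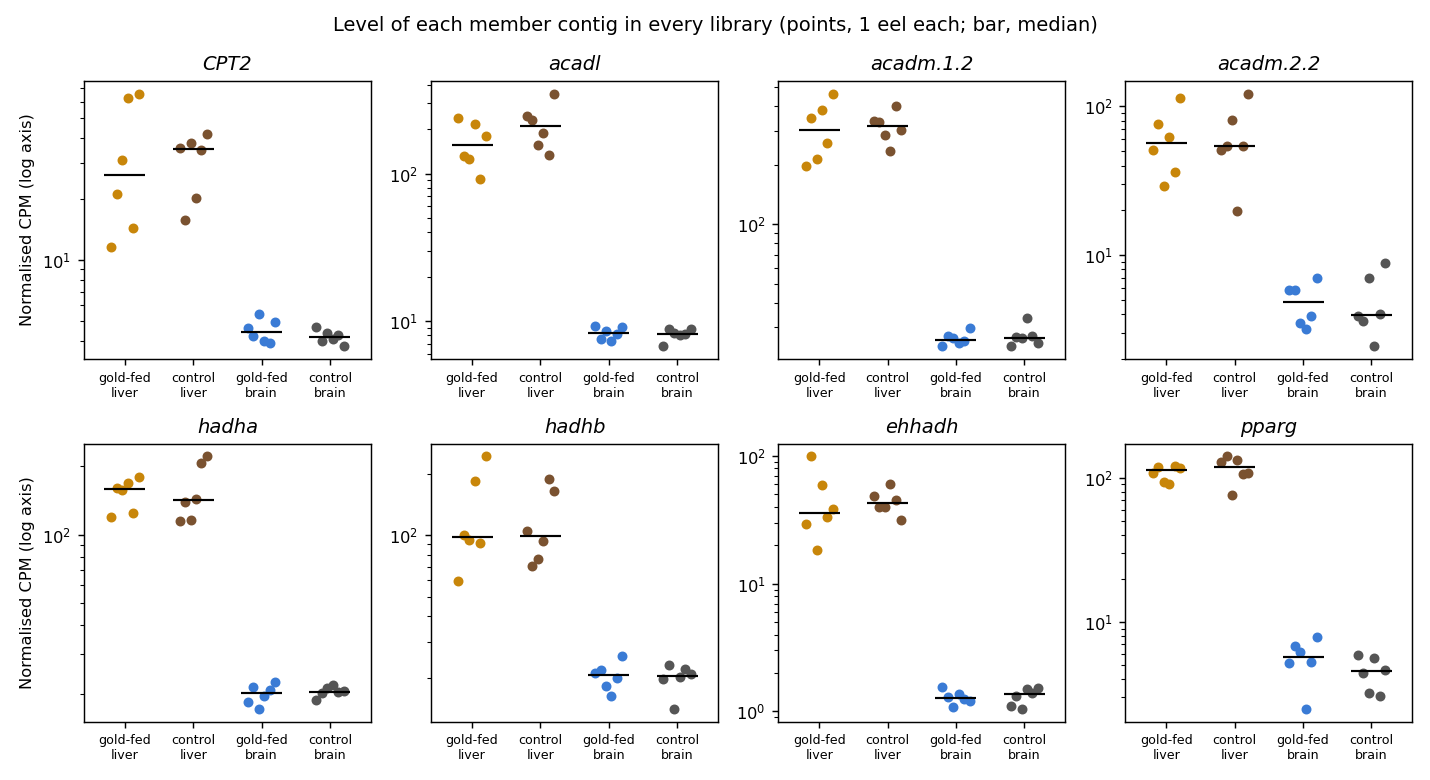
Normalised CPM (vertical log axis) of each of the 8 member contigs in gold-fed liver, control liver, gold-fed brain and control brain, with 1 point per eel and a bar at the median of the 6 eels. For every contig all 12 liver points lie above all 12 brain points, while gold-fed and control points overlap within each organ.

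CPT2 is the carnitine palmitoyltransferase of the inner mitochondrial membrane, which turns acylcarnitines back into acyl-CoA inside the matrix. Its level, given as the lowest, the median and the highest of 6 eels, was 11.6, 26.1 and 65.8 CPM in gold-fed liver and 15.8, 35.1 and 41.8 CPM in control liver. In the brain it was 3.90, 4.43 and 5.45 CPM in gold-fed eels and 3.76, 4.20 and 4.70 CPM in control eels. Gold-fed livers spanned both ends of the range, and control livers lay between them. Liver exceeded brain 7.49-fold in gold-fed eels (log2 2.91 ± 0.41 SE, edgeR adjusted p = 2.07e-05, n = 6 each) and 7.38-fold in control eels (log2 2.88 ± 0.23 SE, edgeR adjusted p = 4.15e-08, n = 6 each).

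The label acadl denotes the long-chain and acadm the medium-chain acyl-CoA dehydrogenase, the flavoproteins of the first step of each round. For acadl the lowest, median and highest values were 91.7, 156 and 237 CPM in gold-fed liver, 134, 211 and 348 CPM in control liver, 7.29, 8.35 and 9.21 CPM in gold-fed brain and 6.74, 8.20 and 8.90 CPM in control brain. Brain values of acadl sat in a narrow band in both groups, and the livers varied several times as much. The liver was 19.5-fold above the brain in gold-fed eels (log2 4.28 ± 0.24 SE, edgeR adjusted p = 1.78e-09) and 26.9-fold above it in control eels (log2 4.75 ± 0.24 SE, edgeR adjusted p = 3.61e-10).

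Copy 1 of acadm (acadm.1.2) had 199, 304 and 463 CPM in gold-fed liver, 237, 316 and 402 CPM in control liver, 24.1, 25.9 and 29.8 CPM in gold-fed brain and 23.9, 26.6 and 33.2 CPM in control brain. Copy 2 (acadm.2.2) had 29.1, 56.6 and 113 CPM in gold-fed liver, 19.8, 54.2 and 122 CPM in control liver, 3.16, 4.82 and 7.00 CPM in gold-fed brain and 2.43, 3.95 and 8.82 CPM in control brain. Copy 2 varied more between eels than copy 1 in all 4 groups. Both copies were higher in liver to a like degree, copy 1 by 11.8-fold in gold-fed and 11.7-fold in control eels, and copy 2 by 12.5-fold and 12.9-fold. The edgeR adjusted p was 4.78e-09 and 1.06e-10 for copy 1 and 4.37e-07 and 2.56e-06 for copy 2 in gold-fed and control eels. The sources used here do not say how reads that suit both copies were counted, so the split between them is uncertain, and the sum of both was 12.0-fold higher in liver of gold-fed eels and 12.1-fold higher in liver of control eels.

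The labels hadha and hadhb denote the alpha and beta subunits of the mitochondrial trifunctional protein, which carries out the last steps of each round on long chains: hadha holds the hydratase and the dehydrogenase, and hadhb the thiolase. For hadha the lowest, median and highest values were 120, 159 and 180 CPM in gold-fed liver, 115, 142 and 221 CPM in control liver, 17.2, 20.2 and 22.6 CPM in gold-fed brain and 18.8, 20.5 and 21.9 CPM in control brain. For hadhb they were 59.5, 97.3 and 243 CPM in gold-fed liver, 70.8, 99.2 and 188 CPM in control liver, 16.4, 20.6 and 25.5 CPM in gold-fed brain and 14.1, 20.5 and 23.1 CPM in control brain. The subunits had the smaller tissue differences of the group together with CPT2. Liver exceeded brain 7.51-fold in gold-fed eels and 7.69-fold in control eels for hadha (edgeR adjusted p = 4.29e-10 and 3.79e-09), and 6.21-fold and 5.85-fold for hadhb (edgeR adjusted p = 3.19e-06 and 5.13e-07).

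Within a library the number of hadhb reads for each hadha read had a median of 0.680 in gold-fed liver (range 0.496 to 1.35), 0.699 in control liver (0.508 to 0.908), 1.04 in gold-fed brain (0.837 to 1.15) and 1.03 in control brain (0.661 to 1.14). The log2 ratio of hadha to hadhb was on average 0.42 higher in liver than in brain, with that sign in 10 of 12 eels (exact sign-flip test, adjusted p = 0.0199 over 21 pairs of members). This ratio needs no scaling between libraries, but it is not a ratio of molecules, since the lengths of the contigs do not enter it.

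The label ehhadh denotes the peroxisomal bifunctional enzyme, which combines hydratase, isomerase and dehydrogenase activities. Its lowest, median and highest values were 18.5, 35.9 and 99.4 CPM in gold-fed liver, 31.5, 42.9 and 60.9 CPM in control liver, 1.09, 1.27 and 1.56 CPM in gold-fed brain and 1.04, 1.36 and 1.53 CPM in control brain. Brains held 164 to 319 reads of ehhadh per library, the fewest of any member. It had the largest tissue difference of the 8 contigs, 35.7-fold in gold-fed eels (log2 5.16 ± 0.39 SE, edgeR adjusted p = 3.63e-08) and 34.0-fold in control eels (log2 5.09 ± 0.19 SE, edgeR adjusted p = 2.4e-11).

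The label pparg denotes peroxisome proliferator-activated receptor gamma, a nuclear receptor best known in mammals for driving the storage of fat in adipocytes. Its values were 90.7, 113 and 121 CPM in gold-fed liver, 75.6, 119 and 141 CPM in control liver, 2.49, 5.74 and 7.82 CPM in gold-fed brain and 3.07, 4.54 and 5.92 CPM in control brain. All gold-fed livers lay within the range of the control livers, and in brain gold-fed eels held both the lowest and the highest value. Liver exceeded brain 19-fold in gold-fed eels (log2 4.25 ± 0.25 SE, edgeR adjusted p = 3.35e-09) and 26.0-fold in control eels (log2 4.70 ± 0.23 SE, edgeR adjusted p = 2.98e-10). Adipocyte markers, 8 contigs of 4 labels, summed to 3990 to 6560 CPM in gold-fed liver, 3950 to 6920 CPM in control liver, 36.5 to 45.2 CPM in gold-fed brain and 40.8 to 55.9 CPM in control brain, with no contig at 0 throughout a group. Of these 8 contigs, 5 were called higher and 3 lower in liver than in brain in both sets of eels, so the sum does not stand for each. The part of these markers in the pparg levels was not tested.

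The calls have to be read against the whole table, because the organs differ in most transcripts. In gold-fed eels 73% of 49776 contigs passed the edgeR threshold of an adjusted p of 0.05, made up of 33.3% of all contigs tested that were higher in liver and 39.7% that were lower. In control eels it was 75.1% of 49741 contigs tested, made up of 34.9% higher and 40.1% lower. All 8 of 8 member contigs were among the higher ones in both. With TMM scaling, liver and brain values did not overlap, with liver on top, for 24.3% of contigs in gold-fed eels and 25.3% in control eels. In bulk tissue, fewer cells expressing a gene and less RNA per cell cannot be told apart.

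**Figure D2:**
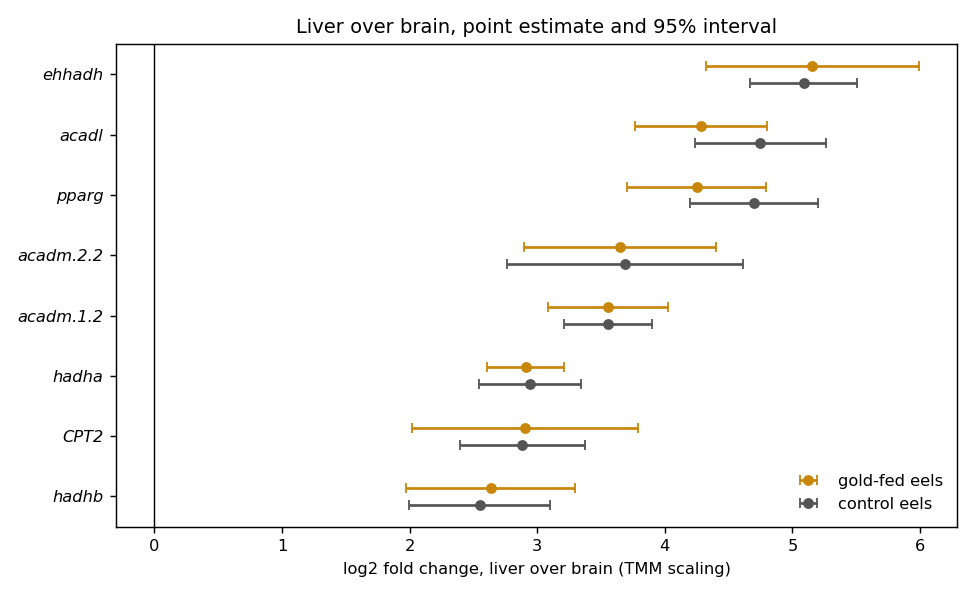
Log2 fold change of liver over brain (horizontal axis) with its 95% interval for the 8 member contigs, in gold-fed eels and in control eels, ordered by the value in control eels. All intervals lie above 0, from 2.55 for hadhb to 5.09 for ehhadh in control eels.

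The size of the tissue differences depends on the scaling. Between TMM factors and library totals their order changed only for hadha and CPT2, which swapped places in gold-fed eels. With plain library totals in place of TMM factors, the median of all contigs moved to -2.13 in gold-fed eels and -2.26 in control eels on the log2 scale, against -0.12 and -0.11 with TMM. Called contigs then split into 5668 higher and 38117 lower in liver of gold-fed eels and 5410 higher and 38824 lower in control eels, against 16551 and 19762, and 17381 and 19963, with TMM. On library totals 7 of 8 members still passed as higher in liver. They ran from 1.88-fold for hadha to 8.71-fold for ehhadh in gold-fed eels. In control eels they ran from 1.64-fold for CPT2 to 7.77-fold for ehhadh. The exception was hadhb, at 1.59-fold (edgeR adjusted p = 0.0642) in gold-fed and 1.30-fold (edgeR adjusted p = 0.143) in control eels. The absence of overlap between livers and brains was found with TMM scaling and did not hold for every member on library totals. Gold-fed eel 7 had 431 CPT2 reads of 75.3 M in liver and 950 of 103 M in brain. For hadhb it had 2208 reads in liver and 4320 in brain. A change of scaling shifts all contigs of a comparison by nearly the same amount. Distances from the median of all contigs therefore change little by construction and do not test the scaling. In gold-fed eels hadhb stood 2.76 above that median with TMM and 2.79 with library totals, and ehhadh 5.28 and 5.25.

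Ratios of reads between members within a library, which no scaling touches, put the tissue differences in order. Of the 21 pairs of labels, 19 had a log2 ratio that differed between liver and brain over the 12 eels at an adjusted p below 0.05 in an exact sign-flip test. The ratio of ehhadh to acadl was 0.56 higher in liver (10 of 12 eels, adjusted p = 0.0340) and that of ehhadh to pparg 0.49 higher (8 of 12 eels, adjusted p = 0.0302). The ratio of acadl to acadm was 0.92 higher in 12 of 12 eels (adjusted p = 0.000789), and that of acadm to hadha 0.63 higher in 11 of 12 (adjusted p = 0.00205). The ratio of CPT2 to hadhb was 0.23 higher in 9 of 12 (adjusted p = 0.0319). Neighbours that the spread did not separate were acadl and pparg, with a mean difference of -0.07 ± 0.59 (SD over 12 eels, adjusted p = 0.708), and CPT2 and hadha, with -0.19 ± 0.71 (adjusted p = 0.384). The order by tissue difference was therefore ehhadh first, then acadl and pparg, then acadm, then hadha and CPT2, and hadhb last.

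Gold exposure was the comparison the series was built on, and no member contig and no label sum passed in it. In liver 0 of 8 contigs were called, where the edgeR test called 0 of 41793 contigs (0%). In brain 0 of 8 were called, where it called 1 of 49830 contigs (0.00201%). Gold-fed and control values overlapped for all 8 contigs in both organs, while 0.486% of all contigs in liver and 0.508% in brain did not overlap. An unadjusted p below 0.05 was met by 3512 contigs (8.4%) in liver and 3863 (7.75%) in brain, none of them a member. DESeq2 called 289 contigs (0.692%) in liver and 178 (0.357%) in brain, limma-voom 0 and 1, and none of these was a member.

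**Figure D3:**
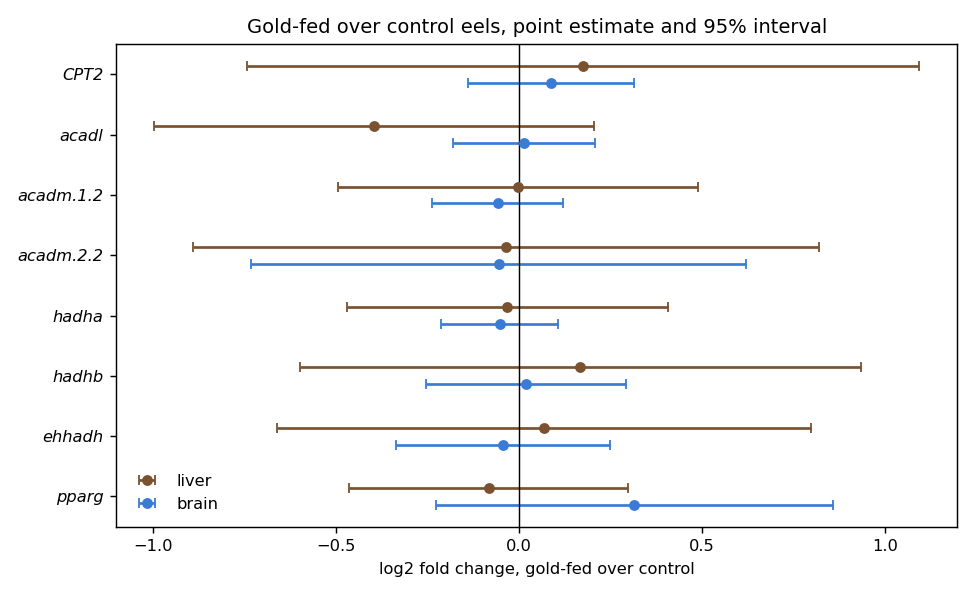
Log2 fold change of gold-fed over control eels (horizontal axis) with its 95% interval for each member contig, in liver and in brain. All 16 intervals cross 0, and those of liver are wider than those of brain for every contig but pparg.

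The intervals state what these eels could show. In liver acadl had the largest fitted change, -0.40 on the log2 scale with a 95% interval of -0.997 to 0.20 (edgeR adjusted p = 0.732), from a mean of 163 ± 56.1 CPM in gold-fed and 218 ± 77.0 CPM in control livers (SD, n = 6 each). CPT2 had 0.18 (-0.74 to 1.09), hadhb 0.17 (-0.60 to 0.93) and ehhadh 0.07 (-0.66 to 0.80), and for these a difference of 1.5-fold in either direction lies inside the interval. The narrowest liver intervals were those of pparg, -0.08 (-0.46 to 0.30), and hadha, -0.03 (-0.47 to 0.41). For acadm the values were -0.00 (-0.50 to 0.49) for copy 1 and -0.04 (-0.89 to 0.82) for copy 2. The edgeR adjusted p of these 7 contigs ran from 0.929 to 0.998.

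In brain the intervals were tighter for every contig but pparg. The fitted log2 change was -0.05 (95% interval -0.21 to 0.11) for hadha, -0.06 (-0.24 to 0.12) for copy 1 of acadm, 0.01 (-0.18 to 0.21) for acadl, 0.09 (-0.14 to 0.32) for CPT2, 0.02 (-0.25 to 0.29) for hadhb and -0.04 (-0.34 to 0.25) for ehhadh. Copy 2 of acadm was less certain, at -0.06 (-0.73 to 0.62). The largest fitted brain change was that of pparg, 0.32 (-0.23 to 0.86, edgeR adjusted p = 0.769), with a mean of 5.64 ± 1.83 CPM in gold-fed and 4.48 ± 1.18 CPM in control brains (SD, n = 6 each). Of the 6 gold-fed brains, 5 were above the control mean, and the lowest of all 12 was also a gold-fed brain, that of eel 10.

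Whether the response to gold differed between the organs was tested as an interaction over 24 libraries, and 0 of 8 member contigs passed, against 3 of 50455 contigs (0.00595%), and 0 of 7 label sums, against 0.00714% of all label sums. An unadjusted p below 0.05 was met by 6.78% of contigs and by no member. The largest values were -0.44 ± 0.30 for acadl (edgeR adjusted p = 0.863) and -0.43 ± 0.30 for pparg (edgeR adjusted p = 0.877, both SE). Ratios between members gave the same count: none of 42 ratios, 21 in each organ, differed between gold-fed and control eels at an unadjusted p of 0.05 in an exact permutation test, the smallest being 0.212 for acadm over pparg in brain.

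Markers of other cell types are given beside these comparisons, and none of their contigs was called in either organ. The summed level of 21 leukocyte contigs of 13 labels was 179 to 313 CPM in gold-fed and 285 to 396 CPM in control livers, and 81.8 to 293 CPM in gold-fed and 108 to 217 CPM in control brains. In liver 19 of the 21 had a fitted change below 0 (median -0.82), and in brain 19 of 21 had one above 0 (median 0.41), and the summed levels of the groups overlapped in both organs. In liver 12 of the 21 had an unadjusted edgeR p below 0.05, against 8.4% of all contigs. In brain 1 had, against 7.75%. In the interaction all 21 were below 0 and 11 had such a p, against 6.78% of all contigs. Contigs of a label are not independent. Erythrocyte contigs, 8 of 5 labels, summed to 488 to 2500 CPM in gold-fed livers (median 1850) and 1140 to 4510 CPM in control livers (median 1560). All 8 had a fitted change below 0 in liver (median -0.34), although the median of the sums was higher in gold-fed livers. Biliary and intestinal contigs, 5 of 4 labels, summed to 72.2 to 133 CPM in gold-fed livers (median 99.3) and 34.1 to 117 CPM in control livers (median 71.1). In liver 4 of these 5 had a fitted change above 0 (median 0.73). An unadjusted edgeR p below 0.05 was met by 2 of the 5 there and by 2 in the interaction. Adipocyte contigs had a median change of -0.13 in liver (3 of 7 tested above 0) and -0.21 in brain (1 of 8). Glial marker contigs had 0.08 in liver (7 of 13) and -0.14 in brain (4 of 15). Hepatocyte contigs had a median change of -0.02 in liver. The part of these cells in the members' values was not tested.

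Among the livers the members differed in how much they varied. In the liver fit the biological coefficient of variation of CPT2 was 0.53, above that of 81.6% of contigs, and copy 2 of acadm was at 0.505, whereas pparg was at 0.289, above 19.1% of contigs. The median of all contigs was 0.371. In the brain fit 5 of the 6 mitochondrial contigs, all but copy 2 of acadm, lay between 0.132 for hadha, above 3.81% of contigs, and 0.18 for hadhb, below the median of 0.254. Copy 2 of acadm was at 0.387, above 79.5% of contigs. These ranks are against all contigs tested, whatever their read counts, so they do not separate spread from level. The standard deviation of log2 levels in liver was 1.04 in gold-fed against 0.56 in control eels for CPT2, 0.83 against 0.32 for ehhadh and 0.48 against 0.26 for copy 1 of acadm. None of the 16 comparisons of spread passed an exact permutation test (p = 0.110, 0.149 and 0.0541 for these 3, adjusted p = 0.468, 0.478 and 0.468).

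No single eel stood high or low in every enzyme. The gold-fed liver of eel 12 was the highest of the 12 livers for CPT2 at 65.8 CPM, for acadm at 581 CPM and for hadhb at 243 CPM, and it ranked 3 for hadha, 7 for acadl and 8 for ehhadh. The gold-fed liver of eel 7 was the lowest for CPT2 at 11.6 CPM and for hadhb at 59.5 CPM, and it ranked 3 from the top for acadl. The gold-fed liver of eel 9 was the lowest for acadm at 247 CPM and ehhadh at 18.5 CPM, and that of eel 8 the highest for ehhadh at 99.4 CPM. Among control livers, that of eel 6 was the highest of all 12 for acadl at 348 CPM and for hadha at 221 CPM. In brain eel 12 again had the top value for acadm, hadha, hadhb and pparg, which was not the case for CPT2, acadl and ehhadh.

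Relations between labels across eels were examined with group means removed, as 21 pairs in each organ. Pearson's r was positive for 16 of 21 pairs in liver and 17 of 21 in brain, and none of the 42 passed a permutation test after adjustment. The closest in liver was CPT2 with hadhb (r = 0.824, rho = 0.762, permutation p = 0.00382 and 0.00913, adjusted p = 0.0802 for r). Without eels 7 and 11 r was 0.771, and it was 0.938 within gold-fed and 0.587 within control livers. The subunits hadha and hadhb had r = 0.787 and rho = 0.713 (permutation p = 0.00246 and 0.0130, adjusted p = 0.0802), with 0.715 when eels 5 and 6 were left out. For acadm and hadhb r was 0.761 and rho 0.769 (permutation p = 0.00725 and 0.00831, adjusted p = 0.0931), with 0.709 when eels 4 and 12 were left out.

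The hadhb levels behind these 3 relations had a gap. In the livers of eels 10 and 12, both gold-fed, and of eels 5 and 6, both controls, hadhb was at least 165 CPM, and in the other 8 it was at most 105 CPM. Within those 8, with group means kept, r with hadhb was 0.532 for CPT2, 0.352 for hadha and 0.223 for acadm. That choice of livers narrows the range of hadhb itself. In brain the closest pair was acadm with hadha (r = 0.731, rho = 0.727, permutation p = 0.00887 and 0.00908, adjusted p = 0.0931), and r was 0.540 without eels 4 and 12.

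**Figure D4:**
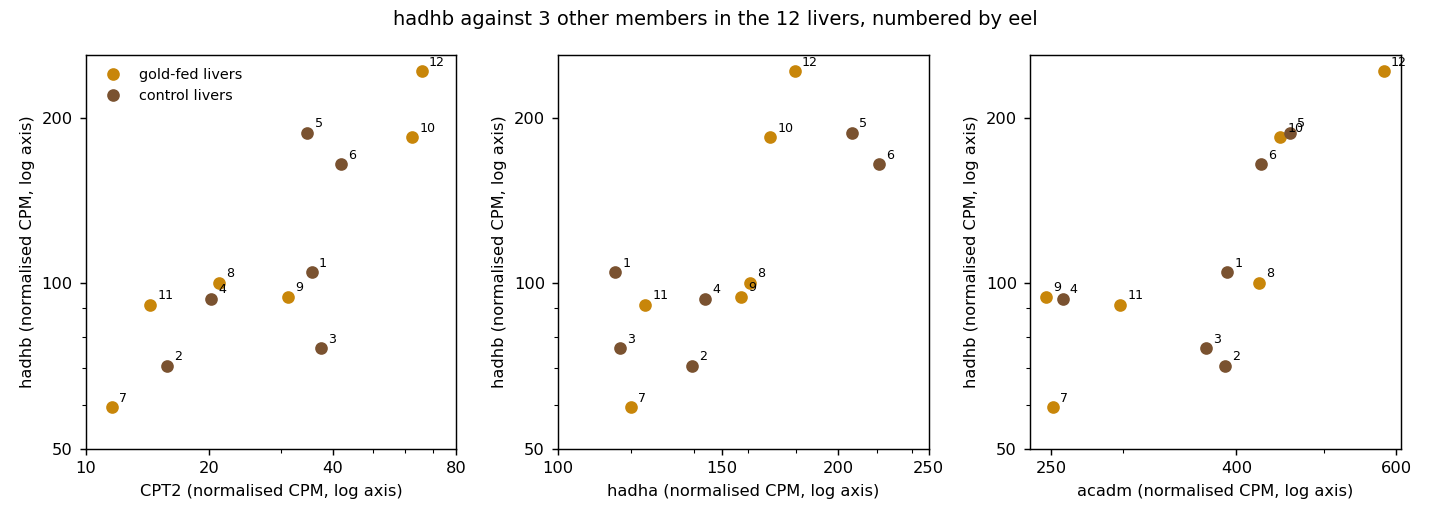
Level of hadhb (vertical log axis, normalised CPM) against CPT2, hadha and the sum of acadm (horizontal log axes, same unit) in the 12 livers, each point numbered by eel, with gold-fed and control livers in separate colours. The livers of eels 5, 6, 10 and 12 lie above 160 in hadhb, and the other 8 lie below 110.

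The labels whose liver pattern was closest to each member were found among 8406 labels with a gene name and at least 1 CPM in liver, over 12 livers with group means removed, and are given as a description. For acadm they were HSDL2 (r = 0.952), cd302 (0.908) and ech1 (0.899), of which ech1 is an isomerase of fatty acid oxidation. For CPT2 they were fam65c (0.951), HACE1 (0.926) and kiaa1958 (0.918), and for hadhb tdp2 (0.908), HACE1 (0.892) and grap (0.886). For acadl they were Gm13212 (0.896), kdm1b (0.884) and HBBA (0.869), the last a haemoglobin label. For ehhadh they were ptpn21 (0.929), cacfd1 (0.877) and pstk (0.867), for hadha AP1M1 (0.881), prr5 (0.880) and sdccag3 (0.865), and for pparg rnft2 (0.875), dgkh (0.856) and ryr2 (0.853). No label other than HACE1 was named for more than 1 member. Each was picked for a high r among 8406 over only 12 livers. That choice alone favours high r, and no r was tested.

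Whether an eel with a high liver level also had a high brain level was asked of each label sum. The closest relation was that of pparg (r = 0.605, rho = 0.552, permutation p = 0.0204 and 0.0628, adjusted p = 0.143 over 7 labels), and none passed the adjusted threshold. Without eels 5 and 10 its r was 0.620, and it was 0.626 within gold-fed and 0.724 within control eels.

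The split of acadm reads between its copies, in contrast, differed between eels and was alike in the liver and brain of an eel. The share of acadm reads on copy 2 ranged from 7.71% of reads in the liver of control eel 4 (Wilson 95% interval 7.26 to 8.18%) to 28.7% in the liver of control eel 6 (27.9 to 29.6%). The brains of the same eels had 6.80% (6.12 to 7.54%) and 26.2% (25.1 to 27.3%), also the lowest and highest of the 12 brains. Gold-fed eels lay between these ends: the livers of eels 7 to 12 had 20.3, 17.8, 11.9, 14.1, 12.2 and 19.6%, and their brains 19.3, 17.9, 11.7, 11.3, 13.2 and 19%. The other control eels, 1, 2, 3 and 5, had 13.1, 14, 22.1 and 11.9% in liver and 13.9, 11.9, 21.0 and 12.9% in brain. Such intervals cover counting error only.

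The share of copy 2 averaged 16 ± 3.73% in gold-fed and 16.3 ± 7.70% in control livers, and 15.4 ± 3.75% in gold-fed and 15.4 ± 6.96% in control brains (SD, n = 6 each). The difference between gold-fed and control eels was -0.28 percentage points in liver and -0.05 in brain (exact permutation test, two-sided p = 0.955 and 0.994). Between the organs of an eel the share differed by 0.69 ± 1.32 points, liver minus brain (SD, n = 12, higher in liver in 8 of 12 eels, exact sign-flip p = 0.0991). Across the 12 eels the log2 odds of copy 2 in liver and brain had r = 0.966 and rho = 0.867 (permutation p = 0.00026 and 0.00164, adjusted p = 0.0026 for r over 10 relations). Leaving out eels 4 and 6 gave r = 0.916, and r was 0.923 within gold-fed and 0.978 within control eels. The level of copy 2 also ran in parallel in the organs (r = 0.852, rho = 0.790, permutation p = 0.00161 and 0.00629, adjusted p = 0.00805), and that of copy 1 did not pass (r = 0.087, rho = 0.231, permutation p = 0.772 and 0.479). These relations were computed after the levels had been seen.

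This pattern is common among labels with a pair of contigs. Of 3152 labels with exactly 2 contigs, 1133 had at least 50 reads of each copy in every library, and their share correlated between liver and brain with a median r of 0.619. It exceeded 0.5 in 661 of them (58.3%), and 65 (5.74%) were at or above the value of acadm. What an eel's liver and brain libraries share, from the animal to the counting of reads that suit both copies, cannot be told apart here.

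**Figure D5:**
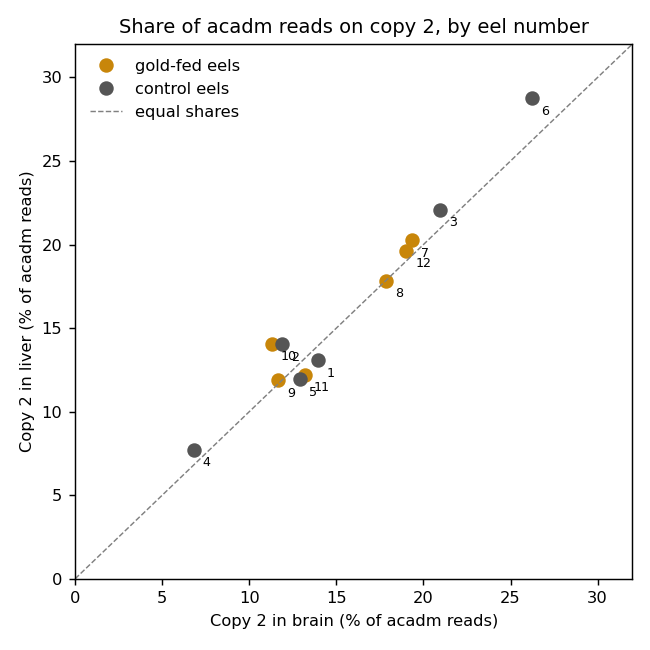
Percentage of acadm reads that fell on copy 2 in the liver (vertical axis) against that in the brain (horizontal axis) of the same eel, numbered 1 to 12, with gold-fed and control eels in separate colours and a dashed line of equal shares. The points follow the line from control eel 4, at 6.80% in brain and 7.71% in liver, to control eel 6, at 26.2% and 28.7%.

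Other genes of mitochondrial fatty acid oxidation were also mostly higher in liver. Of 22 contigs of 17 labels, 20 were called higher and 0 lower in liver of gold-fed eels (median log2 fold change 3.30, against -0.12 for all contigs), and 19 higher and 1 lower in control eels (median 3.10, against -0.11). With library totals the counts were 14 higher and 6 lower, and 14 higher and 5 lower. The largest differences in gold-fed eels were those of echs1, the short-chain hydratase (4.66), hadh, the dehydrogenase for medium and short chains (4.44), and cpt1c (4.41), a label of the carnitine palmitoyltransferase family. In control eels they were echs1 (4.88), hadh (4.73) and copy 1 of decr1, the dienoyl-CoA reductase (4.01). The contig called lower was THIL, the protein entry name of a mitochondrial acetyl-CoA acetyltransferase (-1.82). Whether the label cpt1c names the right member of its family was not tested.

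Peroxisomal genes had 14 contigs of 12 labels, of which 13 were called higher and 1 lower in liver in each set of eels, with medians of 3.77 in gold-fed and 3.98 in control eels. The acyl-CoA oxidase acox3 had 5.62 in gold-fed and 5.34 in control eels, copy 2 of the thiolase acaa1 5.18 and 5.27, and phyh, which starts the alpha-oxidation of branched chains, 5.13 and 5.11. The contig called lower was copy 1 of abcd2, a peroxisomal transporter, with -5.53 and -4.65. Library totals left 12 higher and 2 lower in gold-fed eels and 11 higher and 1 lower in control eels.

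Genes that activate fatty acids or split their CoA esters, 18 contigs of 15 labels, were divided between the organs. In gold-fed eels 10 were called higher and 4 lower in liver (median 1.36), and in control eels 11 and 5 (median 1.16), which became 8 higher and 10 lower in both with library totals. The acyl-CoA synthetase label ACSL1 had 220 to 632 CPM in gold-fed liver and 0.413 to 0.830 CPM in gold-fed brain, a log2 fold change of 9.08, against 8.62 in control eels. Copy 3 of slc27a2, a fatty acid transport protein and very long-chain synthetase, had 7.60 and 8.07. Other contigs of the same names had smaller differences. The label acsl1 in lower case had 5.71 in gold-fed eels, and copy 2 of slc27a2 had 6.16 in control eels. At the other end, acsbg1, a synthetase known from the mammalian brain, had -6.56 and -6.62, slc27a4 -3.68 and -3.48, and acsl6, known from mammalian neurons, -3.49 and -2.69.

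A list of PPAR receptors, partner receptors, coregulators and subunits of the kinase AMPK, with pparg left out, matched 35 contigs of 13 labels. It is called the PPAR and coregulator list here. Its contigs differed less between the organs, with 18 called higher and 4 lower in gold-fed eels (median 0.46). In control eels 16 were called higher and 7 lower (median 0.38). Their direction turned with the scaling, since library totals gave 0 higher and 31 lower in gold-fed and 0 higher and 32 lower in control eels. Copy 3 of ppargc1a, a coactivator of oxidative genes, had 2.51 in gold-fed and 2.11 in control eels with TMM and 0.49 and -0.05 with library totals, and the control value was 1.33 without eel 3. Copy 1 of ncoa2 had 2.41 and 2.27, and ppargc1b -0.80 and -1.07. Both copies of ncoa6 were also lower in liver, copy 1 with -0.92 and -1.04 and copy 2 with -0.85 and -0.97. Among the higher ones, copy 1 of ncoa3 had 1.44 in gold-fed eels and copy 3 of ncor1 had 1.60 in control eels. Targets of PPAR receptors known from mammals, 17 contigs of 12 labels, had 12 called higher and 4 lower in gold-fed eels and 10 and 4 in control eels, with a median of 3.17 in each, and 9 and 8 in both with library totals.

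In the gold comparison 0 contigs of any of these 5 lists were called. The medians of all contigs were 0.02 in liver and 0.00 in brain. The list medians lay near these, except that of the PPAR and coregulator list in liver. Of its 35 contigs, 4 had an unadjusted edgeR p below 0.05 there, against 8.4% of all contigs. In liver the median log2 change was -0.09 for the mitochondrial list (8 of 22 above 0) and -0.07 for the peroxisomal list (5 of 14). It was -0.02 for activation (7 of 18) and 0.18 for the PPAR and coregulator list (27 of 35). For the PPAR targets it was 0.00 (8 of 15 tested), while 52.1% of all contigs were above 0. In brain the medians were -0.03, 0.03, -0.02, -0.02 and -0.03, with 8 of 22, 9 of 14, 9 of 18, 17 of 35 and 8 of 17 above 0, against 50% of all contigs. Contigs of a label share a gene, so these counts are not counts of independent genes.

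The contigs of smallest p in each list are given as values only. In liver the mitochondrial ones were THIL, at 1.63 (edgeR adjusted p = 0.524), and acaa2, the thiolase of medium and short chains, at 2.05 (edgeR adjusted p = 0.635). Both rest on the gold-fed liver of eel 12, without which they were 0.37 and 0.11, and without the control liver of eel 3 acaa2 was 2.89. The highest acaa2 value was 407 CPM in gold-fed livers and 68.8 CPM in control livers, while the medians were 13.2 CPM in both. Copy 2 of ppargc1a was at 14.2 ± 7.36 CPM in gold-fed and 6.66 ± 1.83 CPM in control livers (SD, n = 6 each), a log2 change of 1.1 (edgeR adjusted p = 0.429), and copy 1 of ncoa1 had 1.04 (edgeR adjusted p = 0.469). In the same organ acsl6 had -0.85 (edgeR adjusted p = 0.505), copy 2 of acot13 -0.49, which was -0.23 without the control liver of eel 6, acox3 0.36 and copy 1 of abcd2 -0.44.

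The mitochondrial uncoupling protein label UCP2 had values above 0 in both organs and both copies. Copy 1 was at 33.2 ± 17.3 CPM in gold-fed and 16.6 ± 5.20 CPM in control livers, a log2 change of 1.01 (edgeR adjusted p = 0.455), and copy 2 had 1.17 in liver (edgeR adjusted p = 0.450). In brain copy 1 was at 19.6 ± 3.24 CPM in gold-fed and 15 ± 1.83 CPM in control eels, a change of 0.37 (edgeR adjusted p = 0.596), and copy 2 had 0.56 (edgeR adjusted p = 0.579). None of the 4 passed.

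Other brain values were ACAD10, an acyl-CoA dehydrogenase family member, at 3.54 ± 0.383 CPM in gold-fed and 4.44 ± 0.446 CPM in control brains (-0.34, edgeR adjusted p = 0.587), and acsl4, which activates arachidonate, at 75.5 ± 6.02 and 64.9 ± 1.46 CPM (0.20, edgeR adjusted p = 0.579; SD, n = 6 each). Copy 1 of acad10 had -0.53, which was -0.33 without the control brain of eel 3. The remaining contigs named by the rule were slc27a1 (-0.41), amacr (0.27), copy 1 of abcd2 (0.39), copy 3 of RXRBA (0.34) and copy 1 of ncoa1 (0.36).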

How the data were processed

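The authors deposited raw counts of reads on each contig of an assembly, 1 column for each of 24 libraries, and 0 columns belonged to no sample. Reads were processed with BWA 0.7.12 and SAMtools 1.1, per the submitters' processing notes; libraries were made with a TruSeq RNA kit, per the labels' protocols. The sources used here do not give the assembly, its annotation, the strand or how reads that suit several contigs were handled.

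Counts, alone and summed per label, were tested with edgeR 4.0.16 in R 4.3.3 (quasi-likelihood F test, TMM, filterByExpr by group, Benjamini-Hochberg over all contigs or labels, threshold 0.05), without covariates: gold-fed against control eels within each organ, liver against brain within each eel group (6 against 6), and their interaction. All tests were two-sided. Standard errors were derived from the F statistic, and intervals from the t distribution. Relations used log2(CPM + 0.5) and 100000 permutations within groups, so p could not fall below 1e-05; exact tests enumerated 924 arrangements between groups (smallest possible p 0.00216) and 4096 sign flips over eels (0.000488). Python 3.11.15, numpy 2.4.6 and scipy 1.17.1 were used for these.

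Liver and brain libraries of an eel were paired by the individual label. Their deviations from group means correlated at 0.299 to 0.505 for the same eel. The average for other eels of the same group was -0.123 to -0.0518. Removing group means pushes the values for other eels below 0 by construction, so they are no separate support for the pairing.

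Members and lists were chosen with earlier results of these data known. Named list genes were those past the threshold, up to 6, or where none passed the 2 of smallest p in each organ; between organs, the 3 largest changes in each direction. Chosen after seeing the data were the ratios between members, the comparison of spread, values less the median of all contigs, the copy share relation with its background, the gap in hadhb levels, and list values without each eel. Alternatives were DESeq2 1.42.0, limma-voom (limma 3.58.1), other scalings and filters, eel as block, a pseudocount of 0.1, and leaving out each eel.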

Additional observations from a re-analysis of the deposited data

Results flagged for a closer look

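Among 40 sets of 6 values examined (the 8 contigs and the summed or shared acadm values in each of the 4 groups), 2 had a library that stood apart from its group by Dixon's criterion at 95%, where chance gives about 1 in 20 sets. In control brain, eel 4 had the highest level of copy 1 of acadm (acadm.1.2), 33.2 CPM, with the next brain at 27.1 and the lowest at 23.9 CPM, a gap of 0.660 of the range. Without it the gold-fed over control change of this contig in brain was 0.0091 instead of -0.06. In control brain, eel 3 had the lowest level of hadhb, 14.1 CPM, with the next at 19.7 and the highest at 23.1 CPM, a gap of 0.627 of the range. Without it the change of hadhb in brain was -0.065 instead of 0.02. Neither value passed the test with or without that brain.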

How the results depend on the processing

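Under every alternative run, 0 of 8 members were called for gold exposure and the interaction, and 8 of 8 in both organ comparisons except with library totals, which called 7 (hadhb had 0.67 in gold-fed and 0.38 in control eels). With eel as a replicate block the counts were again 8 of 8 and 0, so pairing changed no call of a member. Among the lists it gave 19 higher and 1 lower in gold-fed eels for the mitochondrial genes (20 and 0 without it). For the PPAR and coregulator list it gave 18 and 6 in gold-fed eels (18 and 4). In control eels that list had 15 and 7 (16 and 7), and no other list count changed. The block turned the interaction of CPT2 to -0.18, acadm.1.2 to -0.032, ehhadh to -0.11, hadha to 0.024 and summed acadm to -0.038. Other sign changes were in uncalled gold values near 0. In liver, limma-voom gave -0.061 for CPT2 and -0.11 for ehhadh, library totals 0.088 for acadm.1.2, 0.096 for acadm.2.2, 0.049 for hadha and 0.089 for summed acadm, and a filter of 1 CPM in 6 libraries 0.0066 and 0.0073 for acadm.1.2 and summed acadm. In brain, library totals gave -0.016 for acadl and -0.013 for hadhb, and limma-voom 0.020 for acadm.2.2. For the interaction, limma-voom gave -0.16 for CPT2, -0.026 for acadm.1.2, 0.0059 for acadm.2.2, -0.098 for ehhadh, 0.024 for hadha and -0.030 for summed acadm, library totals 0.19 for acadm.2.2 and 0.13 for hadha, and the 1 CPM filter 0.00076 for hadha. Leaving out each eel gave in liver -0.12 to 0.34 for CPT2 (lowest without gold-fed eel 12), -0.16 to 0.086 for acadm.1.2, -0.32 to 0.25 for acadm.2.2, -0.30 to 0.23 for ehhadh, -0.11 to 0.085 for hadha, -0.13 to 0.35 for hadhb and -0.18 to 0.085 for summed acadm. In brain it gave -0.03 to 0.05 for acadl, -0.10 to 0.0091 for acadm.1.2, -0.19 to 0.20 for acadm.2.2, -0.10 to 0.011 for ehhadh and -0.065 to 0.075 for hadhb. For the interaction it gave -0.24 to 0.24 for CPT2, -0.11 to 0.11 for acadm.1.2, -0.16 to 0.079 for acadm.2.2, -0.29 to 0.25 for ehhadh, -0.10 to 0.11 for hadha, -0.10 to 0.27 for hadhb and -0.10 to 0.10 for summed acadm. Members not listed for a comparison kept their sign, among them acadl in liver (-0.54 to -0.22) and pparg in brain (0.20 to 0.47). Over all members, listed or not, the smallest edgeR adjusted p on leaving out an eel was 0.501, for pparg in brain. The cause of the sign changes was not tested. At the depth of these libraries each member had 164 reads or more in every library; neither depth nor the number of eels was varied.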

Other observations

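The largest organ differences among the mammalian PPAR targets were those of ucp1 and oxct1. The label ucp1, a mitochondrial uncoupling protein of mammalian brown fat, was at 2441 to 4959 CPM in gold-fed liver and 1865 to 4860 CPM in control liver, against 1.38 to 2.12 CPM in gold-fed brain and 1.15 to 2.11 CPM in control brain (log2 10.96 in gold-fed and 10.98 in control eels). The label oxct1, in mammals the enzyme by which tissues other than liver use ketone bodies as fuel, was at 1098 to 2303 CPM in gold-fed liver and 1161 to 2271 CPM in control liver, against 1.38 to 1.72 CPM in gold-fed brain and 1.22 to 1.72 CPM in control brain (log2 10.11 and 10.25). In the same list cideb, of lipid droplets, had 8.90 in gold-fed and 8.61 in control eels, whereas copy 2 of the lipase lipe had -4.24 and -4.08. The label cd36, a fatty acid transporter, was lower in liver, at 0 to 0.164 CPM in gold-fed liver and 0 to 0.210 CPM in control liver, against 0.421 to 2.25 CPM in gold-fed brain and 0.0845 to 2.05 CPM in control brain, and no fold is given because livers were at or near 0. All 5 passed in both sets of eels (edgeR adjusted p from 1.53e-12 to 7.19e-05 in gold-fed and from 8.43e-13 to 0.000949 in control eels). Whether these labels name the right member of each family was not tested.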
